A study of Caenorhabditis elegans
Pristionchus pacificus with 6 samples.

Results

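The cytosolic ribosomal protein genes of C. elegans were followed in dissected anterior intestines. They were 78 rows of a count table of 73268 genes, picked by identifier, with earlier results of these data known. They comprised 3 rla genes, 44 rpl genes and 31 rps genes. Ribosomal proteins and ribosomal RNA together form the ribosome: rps proteins belong to the small subunit, which reads the messenger RNA, and rpl proteins to the large subunit, which joins amino acids. The rla proteins form the stalk of the large subunit that recruits translation factors. In animals the messenger RNAs of these proteins are known for abundance and for being made and translated together, and a tissue with high protein output, such as the yolk-making nematode intestine, depends on them.

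The libraries came from adult hermaphrodites dissected 72 hours after egg lay at 20 °C. All carried cdk-2::ZF::GFP, a tagged cell cycle kinase gene, and the zif-1(gk117) allele, so the controls are not wild type. The strain with reduced intestine ploidy, CDK-2gut(-), also carried asp-1p::vhhGFP4::zif-1, which makes a GFP-binding nanobody fused to the degradation adaptor ZIF-1 from the asp-1 promoter. Each strain had 3 libraries, numbered 1 to 3, and no label states separate cultures for them, which leaves p-values to measure a spread that may be technical. Intestine lysates were pooled, and the same amount of intestine lysate of another nematode, Pristionchus pacificus, dissected at 96 hours, was added to each as a spike-in. The study compared intestines of normal and reduced ploidy and asked about transcriptional output.

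Libraries held between 9432973 and 15874554 C. elegans counts and between 1761793 and 4060591 spike-in counts. The 10 most abundant C. elegans genes took 60.4% to 66.4% of C. elegans counts in control and 53.99% to 55.8% in CDK-2gut(-). Levels are given as CPM, the count scaled to 1000000 C. elegans counts of the library. The ratio of C. elegans to spike-in counts was 2.78 in replicate 3 of both strains and 4.51 to 5.35 in the other libraries. Levels of marker genes of other tissues were not analysed here. In bulk tissue, fewer cells of a type and less RNA per cell cannot be told apart.

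Of the 78 genes, 77 passed the filter on low counts. The exception was the rpl gene WBGene00004455, with 0 counts in all 6 libraries. At least 100 counts in every library were found for 61 genes, and at least 1000 for 7. Together the genes held 48730 to 142188 counts per library, 0.485% to 0.896% of C. elegans counts. The table holds no multi-mapping reads, which can lower the counts of a gene that has a near-identical copy.

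Ribosomal protein transcripts made up a larger share of the C. elegans transcripts in the low-ploidy intestines. The summed level was 5843, 6786 and 4853 CPM in control replicates 1, 2 and 3. In CDK-2gut(-) it was 8957, 8766 and 8635 CPM. All CDK-2gut(-) libraries lay above all controls, and they also lay closer together: the control mean was 5827 ± 967 and the CDK-2gut(-) mean 8786 ± 162 (SD, n = 3 each), a ratio of 1.51. The rise was shared by the subunits. Large subunit rpl genes went from 3926 ± 667 to 5831 ± 92.1 CPM (SD, n = 3 each), small subunit rps genes from 1554 ± 271 to 2403 ± 88.2, and the rla genes from 348 ± 44.5 to 551 ± 13.8. No p is given for these sums, since the genes were chosen with earlier results known.

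Between strains, the share of the 10 most abundant genes was lower where this share was larger. Among the controls it was not so: replicate 3 was the lowest control in both, at 60.4% and 0.485%. Among the counts outside those 10 genes, ribosomal protein genes held 1.74%, 1.86% and 1.22% in control and 1.95%, 1.98% and 1.94% in CDK-2gut(-). The groups still did not overlap, but the log2 difference was 0.31 in place of 0.61. Without control replicate 3 it was 0.12, and the difference in share of all C. elegans counts was 0.48.

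Scaled to 1000000 spike-in counts the sum was 31283, 30622 and 13468 in control replicates 1, 2 and 3, and 46467, 40434 and 23972 in CDK-2gut(-). Here the groups overlapped, because CDK-2gut(-) replicate 3 stood below control replicates 1 and 2. Both replicate 3 libraries stood low. Within a replicate number, CDK-2gut(-) stood at 1.49, 1.32 and 1.78 times its control. The means were 25125 ± 10100 and 36958 ± 11643 (SD, n = 3 each). The log2 difference of 0.60 was 0.20 without control replicate 3, a comparison that keeps the low CDK-2gut(-) replicate 3 without its same-numbered control. Within replicate numbers 1, 2 and 3 the log2 difference was 0.57, 0.40 and 0.83.

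**Figure D1:**
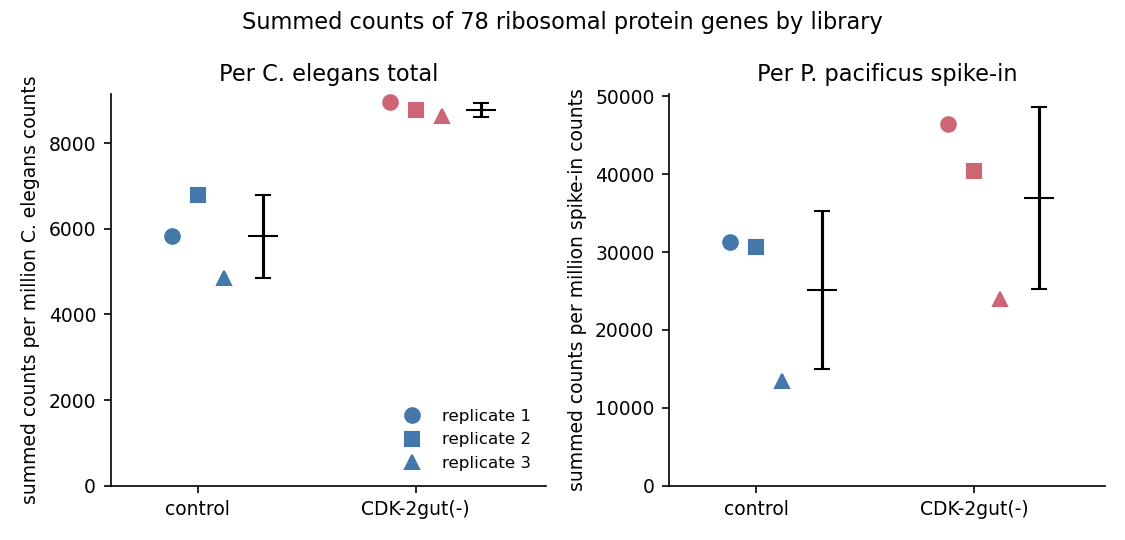
Summed counts of the 78 ribosomal protein genes in each library, per 1000000 C. elegans counts (left) and per 1000000 P. pacificus spike-in counts (right). Points are libraries, with the replicate number given by shape, and bars are the mean ± SD of 3. On the left all CDK-2gut(-) libraries lie above all controls, and on the right both replicate 3 libraries are the lowest of their strain.

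Gene by gene, the change was in 1 direction with plain totals of all 6 libraries, though not on every scale given below. On the CPM scale 41 of the 77 genes tested, or 53.2%, rose in CDK-2gut(-) and 0 fell at an adjusted p under 0.05, with edgeR's quasi-likelihood test and Benjamini-Hochberg adjustment over all genes. Over all 8309 C. elegans genes tested, 22.0% rose and 3.61% fell. The genes that rose were 22 of 43 rpl, 17 of 31 rps and 2 of 3 rla. At an adjusted p under 0.01, 11 members, or 14.3%, rose, against 11.8% of all genes. The members were not matched to all genes for level, which bears on how readily a gene is called. For lower levels, 0 genes passed an unadjusted p under 0.05 as well, since all 77 log2 folds were above 0, and DESeq2 and limma-voom also called 0 lower. In 71 of 77 genes every CDK-2gut(-) library lay above every control, which held for 39.0% of all genes; the reverse held for 0 members and 6.50% of all genes. Leaving out control replicate 1, 2 or 3 gave 26, 53 and 38 genes that rose, where 16.6%, 27.4% and 21.5% of all genes did. Leaving out CDK-2gut(-) replicate 1, 2 or 3 gave 16, 13 and 22, where 13.7%, 13% and 15.3% did.

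The size of the change was modest and close to that of the typical gene. The median log2 fold was 0.67 for ribosomal protein genes and 0.51 for all genes tested. The members lay much closer together: their quartiles were 0.52 and 0.84, against 0.05 and 1.04 over all genes. All genes were not matched to the members for level. Whether the members lay closer together than genes of like level was not tested, so no shared control is read from it. Medians of rpl and rps genes were 0.68 and 0.67. With trimmed mean of M-values (TMM) factors, which centre on the bulk of C. elegans genes, the median of all genes moved to 0.10, lower by 0.40, and that of ribosomal protein genes to 0.27. On that scale 3 of 77 rose and 0 fell, against 11.8% and 6.84% of all genes, and 66 log2 folds remained above 0. All 3 had also risen on the CPM scale.

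On the spike-in scale the median log2 fold was 0.63, and 0.50 over all genes. In the unpaired edgeR fit only rps-12 was called, 1 of 77, against 8.54% of all genes that rose and 1.47% that fell. DESeq2 called 0 lower as well, and 3 members had an unadjusted p under 0.05 in edgeR. All 77 log2 folds were again above 0. In 8 of 77 genes every CDK-2gut(-) library lay above every control, a smaller share than the 1581 of 8309 genes (19%) over all genes, and the reverse held for 0. With the replicate number as a block, which removes the difference in spike-in share between numbers, 36 of 77 rose and 0 fell, where 18.9% of all genes rose and 2.97% fell. Of those 36, 34 had also risen on the CPM scale. Both fits use the same counts. Within numbers 1, 2 and 3 the ratio of C. elegans to spike-in counts was close between strains. It was 5.35, 4.51 and 2.78 in control and 5.19, 4.61 and 2.78 in CDK-2gut(-), so the overlap is not separate evidence. Within replicate numbers 1, 2 and 3 the median difference was 0.54, 0.50 and 0.90, with 76, 75 and 77 of 77 genes higher. The same differences over all genes were 0.69, 0.27 and 0.70, so the ribosomal protein genes stood below the typical gene in number 1 and above it in numbers 2 and 3.

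Other ways of scaling and testing moved the counts of genes called, and 0 of the 77 were lower in each. On the CPM scale 55 rose with DESeq2, where 25.1% of all genes rose and 4.23% fell, and 48 with limma-voom, where 23.5% rose and 3.72% fell. Median-of-ratios factors left 2 (9.24% of all genes rose and 7.80% fell), and a total without the 10 most abundant genes left 4 (13.1% and 5.68%). With median-of-ratios factors 53 of the 77 log2 folds were above 0, as were 48.4% of those of all genes. With the replicate block 36 rose (18.6% and 2.94%), and without replicate 3 of both strains, a choice made after seeing the data, 26 (16.9% and 2.65%). On the spike-in scale TMM over P. pacificus genes gave 8 (16.4% and 2.47%), DESeq2 1 (8.94% and 1.43%), limma-voom 2 (8.12% and 1.42%) and leaving out replicate 3 of both strains 9 (16.2% and 2.31%).

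**Figure D2:**
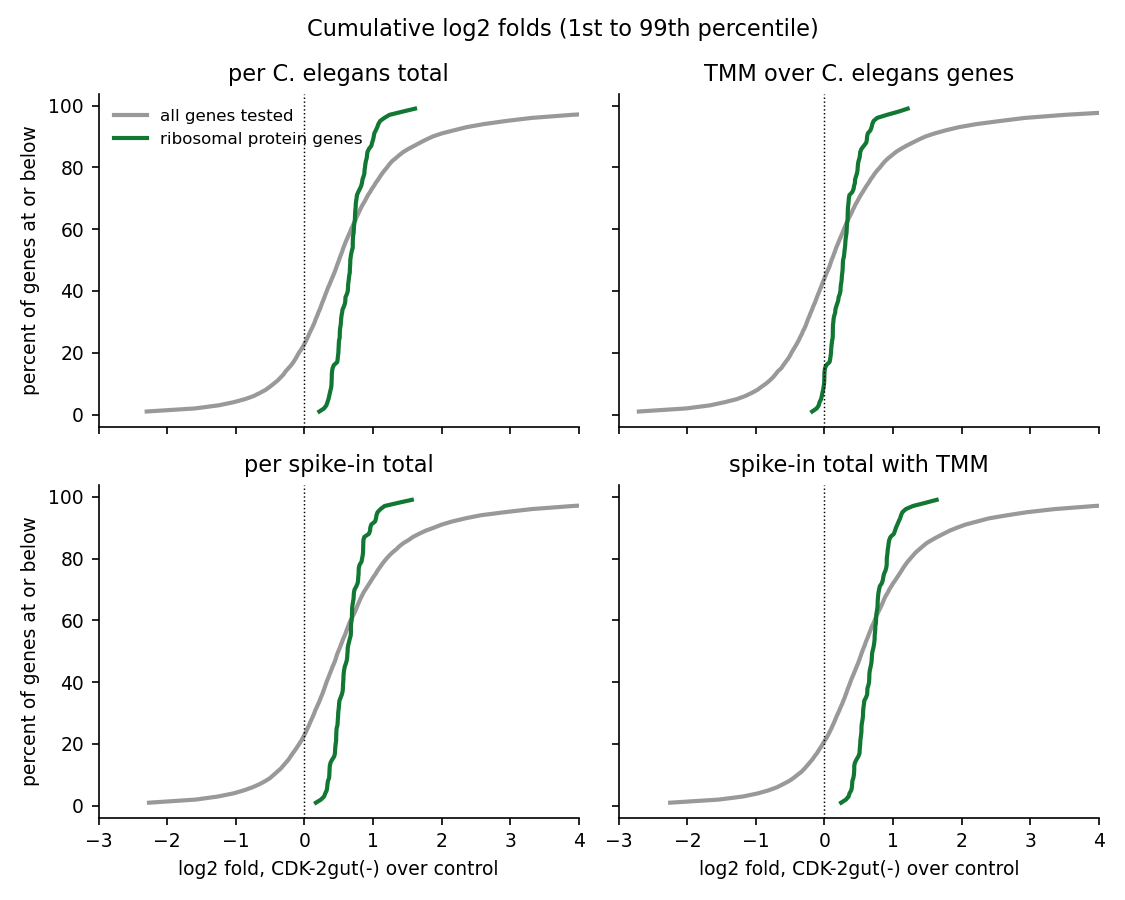
Cumulative distribution of log2 folds (CDK-2gut(-) over control) for all 8309 genes tested (grey) and the 77 ribosomal protein genes (green), on 4 scales. The green curve is steeper than the grey one on each scale, with a median of 0.67 against 0.51 per C. elegans total and 0.27 against 0.10 with TMM factors. The grey genes were not matched to the green ones for level.

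The stalk genes are described first. The gene for the stalk base, rla-0 (WBGene00004408), stood at 240, 253 and 173 CPM in control and 379, 380 and 356 in CDK-2gut(-). The groups were well apart, and rla-0 rose by 0.74 ± 0.16 in log2 (SE; edgeR adjusted p = 0.0119). For rla-1 (WBGene00004409), an acidic stalk protein, control libraries held 104.5, 126.0 and 119.4 CPM and CDK-2gut(-) libraries 158.2, 143.7 and 193.6. It rose by 0.50 ± 0.15 (SE; edgeR adjusted p = 0.0447), a call that was lost without any single library other than control replicate 2 and with the replicate block (adjusted p = 0.071). The other acidic stalk gene, rla-2 (WBGene00004410), had 10.2, 8.63 and 7.27 CPM in control and 12.2, 14.6 and 16.2 in CDK-2gut(-). Its groups did not overlap, but its log2 fold of 0.72 ± 0.24 (SE) was not called (edgeR adjusted p = 0.0594). Scaled by TMM, the log2 folds of the 3 genes were 0.34, 0.10 and 0.33, and 0 of them were called.

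**Figure D3:**
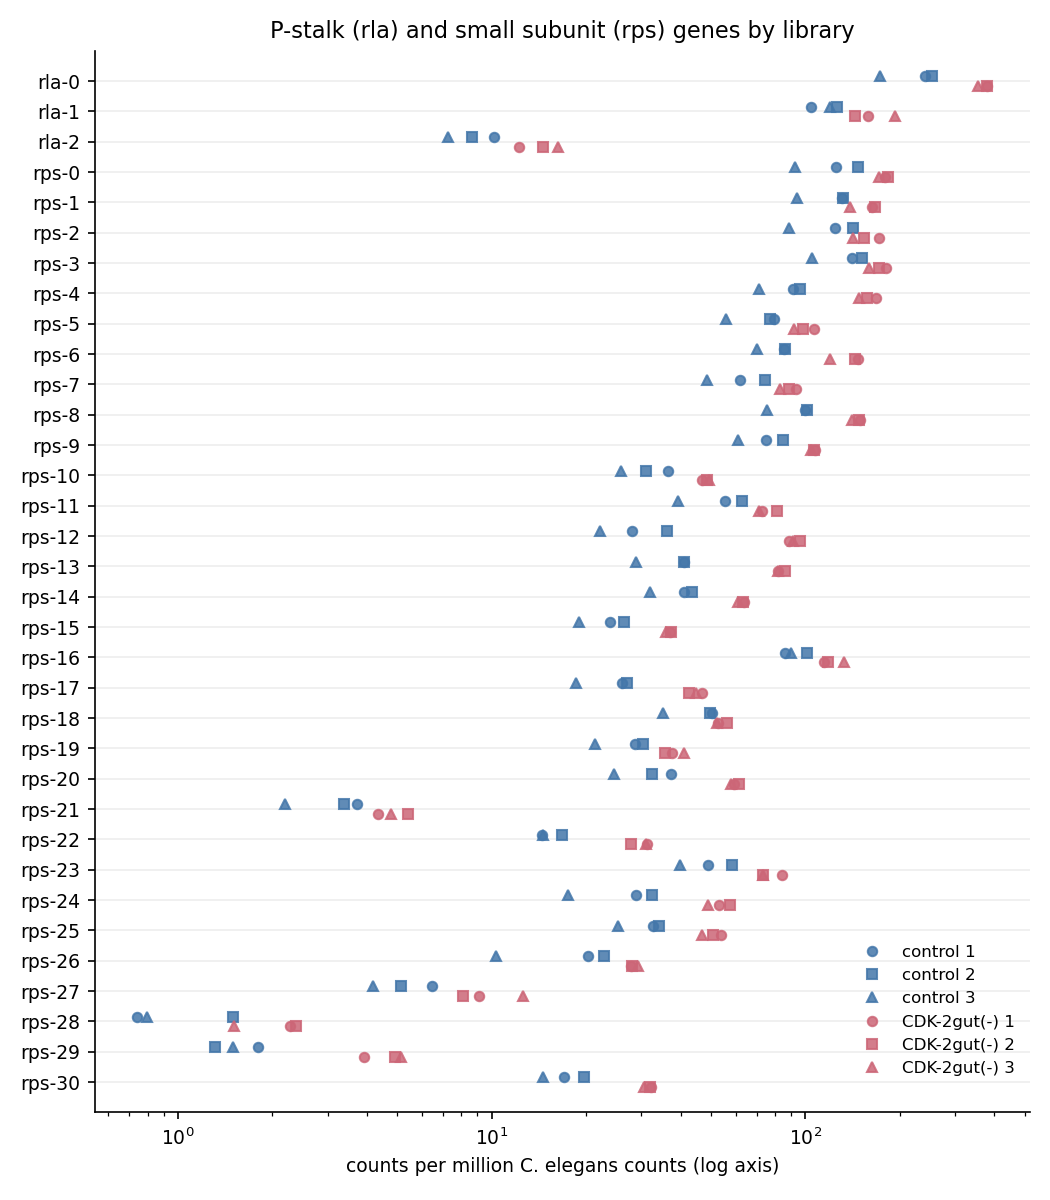
Level of each rla and rps gene in the 6 libraries, in CPM on a log axis, with strain by colour and replicate number by shape. CDK-2gut(-) points lie to the right of control points in every one of these 34 genes, and the widest gaps are those of rps-12, rps-13 and rps-29.

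Among small subunit genes the highest folds were those of rps-12 and rps-29, close to each other in size. The gene rps-12 encodes a protein found in eukaryotic small subunits and not in bacterial ones. Control libraries held 28.1, 36.1 and 22.2 CPM and CDK-2gut(-) libraries 88.7, 96.1 and 91.1. The highest control was far below the lowest CDK-2gut(-) library. The mean went from 28.8 ± 6.97 to 92.0 ± 3.80 CPM (SD, n = 3), which is 1.67 ± 0.19 in log2 (SE; adjusted p = 0.000739 in edgeR). It was also called with TMM factors, at 1.29 ± 0.17 (SE; edgeR adjusted p = 0.00171), and on the spike-in scale, at 1.63 ± 0.50 (SE; edgeR adjusted p = 0.0138). With the numbers as pairs, the spike-in value was 1.70 ± 0.17 (SE; edgeR adjusted p = 0.00265). The unpaired spike-in call was lost without control replicate 2 or 3 or CDK-2gut(-) replicate 1 or 2, with an adjusted p of up to 0.202 and log2 folds of 1.30 or more.

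The gene rps-13 encodes a small subunit protein with a counterpart in bacteria. It went from 41.1, 41.1 and 28.8 CPM in control to 82.1, 85.9 and 81.7 in CDK-2gut(-). The strains did not overlap, and replicate 3 was the low library of the controls. The log2 fold was 1.17 ± 0.17 (SE; edgeR adjusted p = 0.00206), and 0.77 ± 0.17 with TMM factors (SE; edgeR adjusted p = 0.0155). Across 16 settings that scale to C. elegans counts, rps-12 and rps-13 were called higher in all 16. With the block on the spike-in scale the log2 fold of rps-13 was 1.18 ± 0.17 (SE; edgeR adjusted p = 0.0068), where it was not called without the block (adjusted p = 0.157).

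Another pair of small subunit genes with high folds rested on fewer counts or fewer settings. The gene rps-29, for a small zinc-binding protein, had 17, 14 and 15 counts in control and 62, 62 and 58 in CDK-2gut(-), which is 1.80, 1.31 and 1.49 against 3.91, 4.93 and 5.14 CPM. It rose by 1.59 ± 0.37 (SE; edgeR adjusted p = 0.0166), and lost the call without CDK-2gut(-) replicate 2 or 3 and with the replicate block (adjusted p = 0.0517). For rps-24, whose human counterpart is mutated in Diamond-Blackfan anaemia, control libraries held 28.9, 32.5 and 17.5 CPM and CDK-2gut(-) libraries 53.0, 57.7 and 48.9. It rose by 1.01 ± 0.23 (SE; edgeR adjusted p = 0.0162), not called without CDK-2gut(-) replicate 1 or 2. With TMM factors neither gene was called (edgeR adjusted p = 0.0716 for rps-29 and 0.0676 for rps-24).

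Several well-known small subunit genes, picked here for their roles after their values were seen, moved by less. For rps-6, whose product is the classic substrate of the growth-regulated S6 kinase, levels were 85.4, 86.0 and 69.9 CPM in control and 147, 144 and 120 in CDK-2gut(-). It rose by 0.77 ± 0.14 (SE; edgeR adjusted p = 0.00682). For rps-30, whose human counterpart is made fused to a ubiquitin-like protein, levels were 17.1, 19.7 and 14.5 CPM against 32.3, 31.9 and 30.7, a rise of 0.89 ± 0.17 (SE; edgeR adjusted p = 0.00834). The decoding-centre gene rps-23 rose from 49.0 ± 9.20 to 77.0 ± 6.54 CPM (SD, n = 3; edgeR adjusted p = 0.0257), though leaving out control replicate 1 or any CDK-2gut(-) library ended that call. For rps-19, another gene linked in human to Diamond-Blackfan anaemia, means of 26.8 ± 4.79 and 38.0 ± 2.72 CPM (SD, n = 3) were not called different (edgeR adjusted p = 0.0758). With TMM factors 0 of these 4 genes were called.

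At the other end stood rps-18, with the lowest log2 fold of the rps genes. Its product lies in the head of the small subunit. Control libraries held 50.5, 49.6 and 35.1 CPM and CDK-2gut(-) libraries 52.6, 56.4 and 52.4, which puts control replicates 1 and 2 close to CDK-2gut(-) and replicate 3 low. The log2 fold of 0.26 ± 0.17 (SE) was not called (edgeR adjusted p = 0.33), and with TMM factors it was -0.14. The next lowest were rps-3, rps-1 and rps-16, at 0.37, 0.39 and 0.40, none called (edgeR adjusted p = 0.137, 0.123 and 0.0564). The rps-3 protein lies at the messenger RNA entry site and rps-16 reaches the decoding region. With TMM factors these 3 folds were -0.035, -0.011 and -0.0027. The gene rps-0, related to the human laminin receptor protein, went from 122 ± 27.4 to 178 ± 6.41 CPM (SD, n = 3) and just missed the threshold (edgeR adjusted p = 0.0547), which it passed without control replicate 2 or 3.

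**Figure D4:**
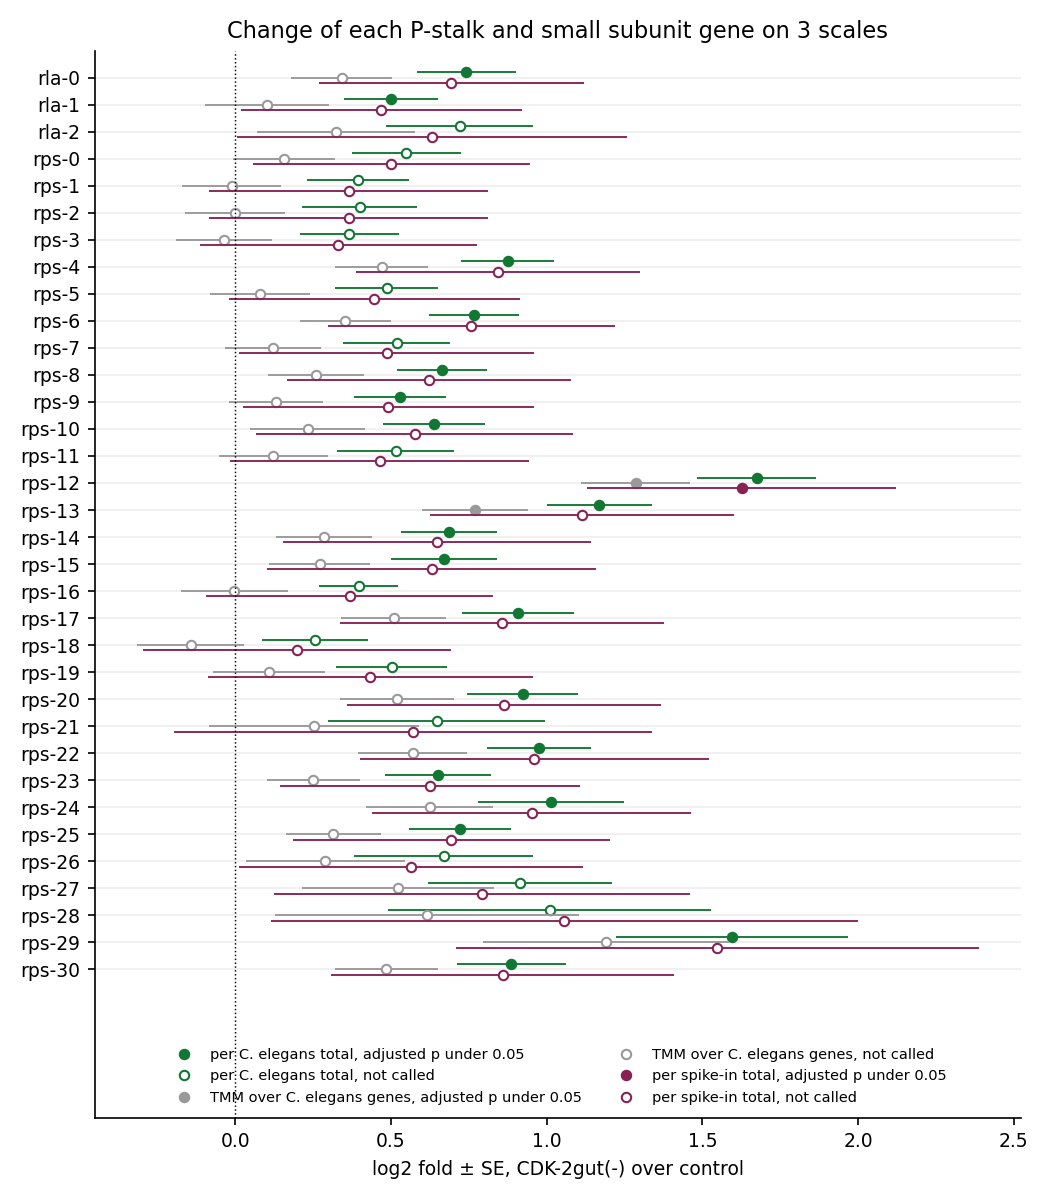
Log2 fold ± SE of each rla and rps gene on 3 scales, with filled points where the edgeR adjusted p is under 0.05. Points per C. elegans total (green) are filled for 17 of 31 rps genes, those with TMM factors (grey) for rps-12 and rps-13, and those per spike-in total (purple) for rps-12.

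Large subunit genes are given by identifier, since the sources used here do not pair these with symbols. The log2 folds of the 43 tested ranged from 0.10 to 1.27, and 22 rose. The one with the most counts, not corrected for length, was WBGene00004419, which held 17.2% ± 2.02 (SD, n = 3) of all ribosomal protein counts in control and 18.7% ± 0.95 in CDK-2gut(-). It had 876, 1288 and 852 CPM in control and 1664, 1568 and 1706 in CDK-2gut(-), with control replicate 2 the highest control. It rose by 0.71 ± 0.17 (SE; edgeR adjusted p = 0.0204), a call lost without control replicate 1 or any single CDK-2gut(-) library. The rpl gene with the firmest call was WBGene00004421, with 107, 150 and 91.7 CPM in control and 245, 252 and 246 in CDK-2gut(-). It rose by 1.09 ± 0.19 in log2 (SE; edgeR adjusted p = 0.00442), and it was the only rpl gene called with TMM factors (0.70 ± 0.17; edgeR adjusted p = 0.0234).

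The extremes of the rpl folds were not called. The highest, 1.27 ± 1.21 (SE; edgeR adjusted p = 0.512), belonged to WBGene00004422, which had 12, 121 and 1 counts in control and 206, 110 and 103 in CDK-2gut(-). Control replicate 2 alone stood at the level of the CDK-2gut(-) libraries, and without it the log2 fold was 3.91 and passed the test. The lowest belonged to WBGene00004441, with 84.2, 113 and 86.5 CPM in control and 100, 96.1 and 108 in CDK-2gut(-). Here the groups overlapped, and the log2 fold was 0.10 ± 0.15 (SE; edgeR adjusted p = 0.689) and -0.29 with TMM factors.

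The controls differed from each other in a shared way. On the CPM scale control replicate 3 was the lowest control in 65 of 77 genes and control replicate 2 the highest in 55. Over all genes tested, replicate 3 was the lowest control in 51.7% and replicate 2 the highest in 51.5%. In CDK-2gut(-), replicate 3 was the lowest in 43 of 77, against 53.4% of all genes.

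Scaled to the sum of the ribosomal protein genes, every CDK-2gut(-) library lay above every control for 20 of 77 genes and below for 12, against 18.6% and 19.2% of all genes on that scale. These shares are near those of all genes, and nothing is read from them. For genes described above for their high or low folds, the shares are given as a description: rps-12 went from 0.490% ± 0.038 to 1.05% ± 0.054, rps-13 from 0.634% ± 0.061 to 0.947% ± 0.032 and rps-18 from 0.772% ± 0.079 to 0.612% ± 0.028 (SD, n = 3 each).

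Of the 27 rps genes found by symbol in the RefSeq gene table (WBcel235), 5 overlap a small nucleolar RNA gene: rps-4, rps-12, rps-13, rps-23 and rps-29. This grouping was made after the values were seen and was not tested, so the values below are a description and nothing is read from the contrast. On the CPM scale, where 22.0% of all genes rose, all 5 rose, with log2 folds from 0.65 to 1.67 and a median of 1.17. Of the other 22, 10 rose, with log2 folds from 0.26 to 1.01 and a median of 0.66. These 22 include rps-16, which overlaps a protein-coding gene and was not called, and rps-20, which overlaps a microRNA gene and rose. With TMM factors rps-12 and rps-13 of the 5 were called, and rps-4, rps-23 and rps-29 were not (edgeR adjusted p = 0.0612, 0.32 and 0.0716). In rps-4, whose RefSeq gene also overlaps a protein-coding gene, levels were 91.5, 96.5 and 70.9 CPM in control and 168, 158 and 149 in CDK-2gut(-). Whether counting used strand, and how reads in overlapping genes were assigned, was not stated in the labels, and the part of overlapping genes in these folds was not tested.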

How the data were processed

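RNA of 6 libraries was counted per gene. The authors deposited 1 table of raw counts for both species, without normalization; STAR and featureCounts are named in the submitters' processing notes, while those notes give no versions, builds or strand setting. By the table's name, it excludes multi-mapping reads. Species were told apart by a boundary in file order that an earlier analysis inferred from the counts: the last 26310 of the 73268 rows were taken as P. pacificus. Members and lists were chosen with earlier results of these data known. The symbols of rla and rps genes come from the rule for the members, which gives 34 consecutive identifiers as rla-0 to rla-2 and rps-0 to rps-30. Of the 31 rps symbols, 27 are in the RefSeq table, and within a chromosome 22 of 22 neighbouring pairs have the same order in the deposited table. The rpl identifiers were not paired with symbols, so lists fixed by symbol (ribosome assembly, tissue markers) were not analysed here.

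Genes were kept with filterByExpr (8309) and tested with edgeR 4.0.16 (R 4.3.3; robust quasi-likelihood, Benjamini-Hochberg over all genes, threshold 0.05). Library sizes were plain C. elegans totals (CPM scale) or plain P. pacificus totals (spike-in scale). Alternatives used TMM, median-of-ratios, DESeq2 1.42.0 and limma-voom 3.58.1. The SE of a log2 fold was taken as its size over the root of the F statistic. At a like ratio of fold to SE, the unpaired spike-in fit gave smaller p-values than the CPM fit. In edgeR, rps-12 at 1.63 ± 0.50 (SE) per spike-in had an unadjusted p of 0.00102, and rla-1 at 0.50 ± 0.15 (SE) in CPM had 0.011. The p-values of the 2 scales are therefore not directly comparable. The fit was tested on simulated data in which a small set of genes changed, as many up as down. That simulation lacks the shift of the typical gene seen here, so it cannot decide between scales. Lengths were not used, so an order of genes by count or CPM is not one of levels per length. Genes given with values were the rla genes and, in rpl and rps, the 4 highest and 4 lowest folds and 3 highest mean CPM, plus rps-4, rps-6, rps-19, rps-23 and rps-30, which were chosen after their values were seen; of the rpl genes so chosen, only 4 identifiers are printed, besides the gene at 0. Over P. pacificus genes, the deviations of same-numbered libraries had correlations of 0.553, 0.565 and 0.848, all above 0.1. On the spike-in scale a fit with the numbers as pairs is therefore given beside the main fit, which was unpaired. Over C. elegans genes the deviations correlated at 0.114, -0.0453 and 0.207, not all above 0.1, and the numbers were not taken as pairs.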

Additional observations from a re-analysis of the deposited data

How the results depend on the processing

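Of ribosomal protein genes called, 0 were lower in any setting, so the counts given are of genes that rose. On the CPM scale 41 rose. The number was 3 with TMM factors, 2 with median-of-ratios factors, 4 with totals without the 10 most abundant genes, 11 at an adjusted p of 0.01 (11.8% of all genes) and 13 to 53 with single libraries left out (13% to 27.4% of all genes). The median log2 fold of 0.67 was 0.27, 0.14 and 0.36 under the first 3 of these and 0.56 to 0.77 with single libraries left out. The median of all genes was 0.10, -0.028 and 0.20 on these 3 scales, against 0.51. On the spike-in scale 1 rose, 8 with TMM over P. pacificus genes, 2 with limma-voom, 0 at an adjusted p of 0.01 (5.86% of all genes) and 0 to 1 (4.43% to 9.19% of all genes) with single libraries left out. The rpl median minus the rps median of 0.0085 was -0.088 to 0.035 with single libraries left out, and the summed share differed by 0.31 without the 10 most abundant genes and by 0.48 to 0.72 with single libraries left out. Chosen after seeing the data, the share outside the 10 most abundant genes was also taken with single libraries left out. It differed by 0.38, 0.42 and 0.12 without control replicate 1, 2 and 3 and by 0.31, 0.30 and 0.31 without CDK-2gut(-) replicate 1, 2 and 3. Also chosen after seeing the data, leaving out replicate 3 of both strains gave 26 on the CPM scale and 9 on the spike-in scale, and TMM with the replicate block gave 3 (median 0.28; 10.2% of all genes rose and 5.89% fell) and 45 (21% and 2.9%).

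With the replicate block, the paired fit, 36 rose on the spike-in scale, with a median of 0.68, and 36 on the CPM scale, where the numbers were not taken as pairs.

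Folds of genes that were given with values turned negative as follows, none of them called. With TMM they were -0.011 for rps-1, -0.035 for rps-3, -0.0027 for rps-16, -0.14 for rps-18 and -0.29 for WBGene00004441. With TMM and the block they were -0.0045, -0.029, -0.015, -0.14 and -0.30 in that order. With median-of-ratios factors they were -0.14, -0.17, -0.14, -0.27 and -0.43, and -0.039 for rla-1 and -0.022 for rps-19. Without the 10 most abundant genes they were -0.058 for rps-18 and -0.20 for WBGene00004441, which was at -0.0083 without replicate 3 of both strains. On the spike-in scale, with single libraries left out, rps-18 ranged from -0.13 to 0.49 and WBGene00004441 from -0.19 to 0.29, negative for both without control replicate 3 and for the latter also without CDK-2gut(-) replicate 1 (-0.11). Those fits were unpaired. In the paired fit on that scale, the log2 folds of rps-18 and WBGene00004441 were 0.27 and 0.11, not called (edgeR adjusted p = 0.299 and 0.644). What caused the changes of sign was not tested. Depth limits the members with few counts, such as rps-29.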
